A study of Mus musculus with 2 samples.

Results

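Neutrophils store their antimicrobial and proteolytic proteins in granules, and the genes of 10 abundant granule proteins were followed here through 2 single-cell libraries of mouse bone and muscle. The genes were taken by symbol, 10 of the 32285 genes in the tables, and each was found once. Azurophil granules were represented by Mpo (myeloperoxidase), Elane (neutrophil elastase), Prtn3 (proteinase 3) and Ctsg (cathepsin G). Specific granules were represented by Ltf (lactoferrin), Camp (the cathelicidin precursor), Ngp (neutrophilic granule protein) and Lcn2 (lipocalin 2). Mmp8 (neutrophil collagenase) and Mmp9 (gelatinase B) were put together in a class called gelatinase here. This label does not say in which granule the Mmp8 protein lies. Both libraries came from 3 littermate male mice of the genotype Clec3b.creERT2; Ai14.R26.tdTomato, in which tamoxifen given 2 weeks before surgery makes Clec3b-expressing cells and their progeny fluoresce. The founders carrying the Cre construct were made on a C57 background. The study's fracture surgeries were done at 6 weeks of age on the right femur, with a pin for stabilization, and both tissues were taken 3 weeks after surgery. The callus library held pooled fracture calluses, and the intact library held pooled unfractured femoral diaphyses with the muscle around them. Cells were sorted for tdTomato before capture, and the study set its blood-lineage cells aside as sorting artefacts, so the granulocytes described below lie outside the lineage the sort aimed at.

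Granule proteins are made in order during neutrophil maturation in the bone marrow. The serine proteases and myeloperoxidase of azurophil granules are transcribed in promyelocytes, the contents of specific granules in myelocytes and metamyelocytes, and the matrix metalloproteinases of gelatinase granules in band and segmented cells. Each protein is packed into the granule that is being formed when its transcript is present, so the timing of transcription is known to set where a protein ends up. C/EBP factors, PU.1 and MYB are transcription factors of this lineage.

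Elane and Prtn3 are neighbours on chromosome 10, the others lie on chromosomes 2, 9, 11 and 14, and the 10 genes were located in the GENCODE M21 annotation of GRCm38. Prtn3 spans chr10:79874476-79883174 and Elane chr10:79886247-79888215, both on the plus strand, 3073 bases apart with no coding gene between them. Mpo lies at chr11:87793581-87804413 and Ctsg at chr14:56099881-56102574. Ltf (chr9:111019271-111042767), Camp (chr9:109847379-109849617) and Ngp (chr9:110419747-110423012) share chromosome 9 with Mmp8 (chr9:7558456-7568485). Lcn2 lies at chr2:32384633-32388252 and Mmp9 at chr2:164940780-164955850. A promoter window of 300 bases around the RefSeq gene start (build GRCm38.p6) was at hand for 9 of the 10 genes. The windows of both neighbours of the azurophil class, of the specific genes Ngp and Lcn2, and of the gelatinase gene Mmp8 are printed as examples of windows with matches. The RefSeq starts of Prtn3, Elane, Ngp and Lcn2 lie inside their GENCODE genes, which begin farther upstream. The windows of Prtn3 and Lcn2 lie wholly within the GENCODE gene. The windows cover chr10:79879417-79879716 (plus strand), chr10:79886062-79886361 (plus), chr9:110419558-110419857 (plus), chr2:32387690-32387989 (minus) and chr9:7558179-7558478 (plus). Capitals mark matches, on either strand, to the C/EBP motif TTGCNNAA, the PU.1 motif GAGGAAG and the MYB motif CAACNG.
Prtn3: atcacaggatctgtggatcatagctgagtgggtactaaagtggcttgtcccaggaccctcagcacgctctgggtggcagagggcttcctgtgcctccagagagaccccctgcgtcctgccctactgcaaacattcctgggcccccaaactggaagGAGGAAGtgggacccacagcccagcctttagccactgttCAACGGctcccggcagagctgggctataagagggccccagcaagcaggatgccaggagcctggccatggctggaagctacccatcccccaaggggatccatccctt
Elane: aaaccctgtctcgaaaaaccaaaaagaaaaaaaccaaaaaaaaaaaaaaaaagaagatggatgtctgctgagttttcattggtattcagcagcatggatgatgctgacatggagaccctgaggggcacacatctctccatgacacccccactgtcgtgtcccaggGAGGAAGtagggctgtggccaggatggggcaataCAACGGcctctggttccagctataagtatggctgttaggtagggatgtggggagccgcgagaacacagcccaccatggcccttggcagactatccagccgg
Ngp: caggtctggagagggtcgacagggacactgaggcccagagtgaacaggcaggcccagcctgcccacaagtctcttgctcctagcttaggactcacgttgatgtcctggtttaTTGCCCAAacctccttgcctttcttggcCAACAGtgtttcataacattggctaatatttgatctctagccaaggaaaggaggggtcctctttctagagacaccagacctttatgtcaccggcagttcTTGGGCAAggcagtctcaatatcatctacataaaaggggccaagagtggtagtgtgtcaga
Lcn2: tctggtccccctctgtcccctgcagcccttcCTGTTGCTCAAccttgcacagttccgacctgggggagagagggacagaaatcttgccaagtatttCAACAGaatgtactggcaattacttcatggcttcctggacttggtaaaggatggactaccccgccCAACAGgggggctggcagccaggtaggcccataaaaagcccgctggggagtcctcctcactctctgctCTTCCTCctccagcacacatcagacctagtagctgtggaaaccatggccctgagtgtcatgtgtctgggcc
Mmp8: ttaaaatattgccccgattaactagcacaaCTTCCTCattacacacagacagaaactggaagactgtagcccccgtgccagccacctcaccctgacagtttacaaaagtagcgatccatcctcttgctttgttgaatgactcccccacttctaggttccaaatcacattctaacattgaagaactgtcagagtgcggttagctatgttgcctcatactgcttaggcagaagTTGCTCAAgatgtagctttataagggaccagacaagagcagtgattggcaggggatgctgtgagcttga
In the Prtn3 and Elane windows a GAGGAAG and a CAACGG followed each other at like distances, starting 95 and 56 bases before the start in Prtn3 and 85 and 51 bases before it in Elane. The PU.1 letters occurred in all 4 azurophil windows and also in those of Lcn2 and Mmp8, against 13.6% of 32851 windows of the same length. The C/EBP letters occurred in Ltf, Ngp, Lcn2 and Mmp8 and in no azurophil window, against 10.8% of all windows. The MYB letters occurred in 5 members (Elane, Prtn3, Ctsg, Ngp and Lcn2) and in 35.0% of all windows. The window of the specific gene Camp, not printed, held no C/EBP, PU.1 or MYB match. In Lcn2 the C/EBP match and a MYB match overlap by 3 bases, which leaves a longer run of capitals. A match is a description of the letters and no evidence of binding.

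After removal of barcodes with fewer than 500 genes or more than 10% mitochondrial counts, 1207 of 1872 barcodes of the intact library and 3295 of 3987 of the callus library remained, with a median of 4939 and 6843 unique molecular identifiers (UMIs, 1 per captured transcript) a cell. The libraries shared 1 barcode. Each condition was 1 library of pooled animals, so no test between conditions was possible and no p-value is given. Levels are UMI counts scaled to a total of 1000000 (CPM) of all cells of a group summed, and because the kit counts 3′ ends, CPM do not scale with gene length. Intervals are 95% exact Poisson for levels and exact Clopper-Pearson for shares, and cover counting error only. The labels state male mice, yet Xist was found in 56.0% of 216 intact and 84.3% of 871 callus granulocytic cells with at least 5000 UMIs, while 4 Y-linked genes gave 1 UMI in intact and 0 in callus cells.

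Clustering of all 4502 cells, with the members and 22 other granule genes kept out of the clustering genes, gave 27 clusters, of which 6 were granulocytic and held 342 intact and 1073 callus cells. The score limits for naming were set after the clusters were seen. The names of 3 clusters rest on marker genes that include no member. Cycling preneutrophil-like cells (16 intact, 213 callus) were led by Cebpe, a granulocyte transcription factor. They had the highest level of the proliferation gene Mki67, at 525 CPM in intact and 774 CPM in callus. Immature neutrophil-like cells (70 and 267) were led by Ly6g, Wfdc21 and S100a9, and mature neutrophil-like cells (120 and 128) by Cxcl2 and Il1b. The other clusters are called by a leading gene, because their leading genes held at least as many markers of another list as of their own. In the Prg2 cluster this was a tie of 2 and 2, which the limits for naming would have let pass. The Gria3 cluster scored highest on the cycling preneutrophil list, but at 0.872, under the limit of 1 for a named stage. Its Mki67 level was 432 CPM in intact and 608 CPM in callus, so it held cycling cells too. The Prg2 cluster (28 and 182) was led by Prg2, Prg3, Ctla2a and Epx, of which Prg2 and Epx encode eosinophil granule proteins, and scored highest on the granulocyte-monocyte progenitor list, which holds Cd34, Kit and Myb. The Gria3 cluster (9 and 146) was led by Gria3, Ass1, Cst7 and F13a1, the last a gene of the monocyte marker list. The summed level of that list was higher there than in the other granulocytic clusters, at 3519 CPM in intact and 2928 CPM in callus. The Retnlg cluster (99 and 137) lay between the immature and mature cells, with markers of both.

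The libraries held the 6 clusters in different proportions. The Prg2, Gria3 and preneutrophil-like clusters held 8.19%, 2.63% and 4.68% of the intact granulocytic cells and 17.0%, 13.6% and 19.9% of those in callus. The Retnlg and mature neutrophil-like clusters held 28.9% and 35.1% of the intact cells and 12.8% and 11.9% of the callus cells. Median UMIs a cell were also lower in the mature cells, 27491 in the callus Prg2 cluster and 3082 in callus mature neutrophil-like cells.

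The azurophil genes were highest in the Prg2 and Gria3 clusters and near background by the Retnlg cluster. Elane, whose protease cleaves bacterial and matrix proteins, stood at 7484 CPM (7408 to 7561) in the callus Prg2 cluster and 7364 CPM in the callus Gria3 cluster. In the intact library the corresponding levels were 2001 CPM (1865 to 2144) and 5283 CPM (4988 to 5591). In preneutrophil-like cells Elane was at 2763 CPM in callus and 32.0 CPM in intact, and in immature neutrophil-like cells at 489 and 1.52 CPM. The callus series therefore declined over 3 clusters, whereas the intact series was already at 9 UMIs in the preneutrophil-like cells. Prtn3, the elastase-related protease next to it, was at 7110.4 CPM in the callus Prg2 cluster, 6787 in Gria3, 2026 in preneutrophil-like and 278 in immature cells, and at 2403, 6138, 142 and 4.57 CPM in intact. Mpo, the enzyme that makes hypochlorous acid, was at 5181, 4156, 774 and 95.8 CPM in callus and 1819.8, 2963, 10.7 and 3.05 CPM in intact over the same clusters. Ctsg, a chymotrypsin-like protease, was at 4123, 4166, 448 and 35.1 CPM in callus and 1390.3, 3612, 3.55 and 1.52 CPM in intact. In the intact library all 4 genes were thus highest in the Gria3 cluster, then in the Prg2 cluster, while in callus these clusters were close and Mpo, Elane and Prtn3 were higher in the Prg2 cluster. In the Retnlg and mature clusters no azurophil gene exceeded 12.3 CPM in either library.

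In summed UMIs the azurophil genes did not decline in step. The sums of the later clusters rest on few cells. In callus, 30 preneutrophil-like cells held 86.8% and 4 immature cells held 57.0% of the azurophil UMIs of their cluster. In both libraries together, Elane stood at 3.57 times the level of Mpo in preneutrophil-like cells and 5.07 times in immature cells, both in CPM. Prtn3 was at 0.955 times the level of Elane in the Prg2 cluster, 0.93 in Gria3, 0.736 in preneutrophil-like and 0.569 in immature cells, ratios that follow the larger callus library. In intact Prtn3 was above Elane, at 1.20 times (1.09 to 1.32) in the Prg2 and 1.16 times (1.07 to 1.26) in the Gria3 cluster. Ctsg was at 0.795, 1.01 and 0.579 times the level of Mpo in the Prg2, Gria3 and preneutrophil-like clusters. Elane was therefore the highest of the 4 genes in the later callus cells, and the ratios for the later cells rest almost entirely on callus. In intact preneutrophil-like cells Prtn3, with 40 UMIs, was the highest.

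The specific-granule genes were high from the preneutrophil-like cells on, where Camp was at its peak and Ltf, Ngp and Lcn2 were below theirs. Their sum was 12.1% of UMIs in intact and 10.7% in callus preneutrophil-like cells, and 13.4% and 12.5% in immature cells. Camp, whose product is cut into an antimicrobial peptide, was at 58803 CPM (57911 to 59705) in intact and 54512 CPM in callus preneutrophil-like cells, 54262 and 53506 CPM in immature cells, 21596 and 22719 CPM in the Retnlg cluster, and 1036 and 3896 CPM in mature cells. Ngp, a cathelicidin-related protein encoded near Camp, was at 41961 and 38013, then 50383 and 46887, then 30749 and 30349, and last 4646 and 6348 CPM. Camp thus peaked in the preneutrophil-like cells in both libraries, and Ngp in the immature cells. Lcn2, which binds bacterial siderophores, was at 14371 and 10787, 19565 and 16259.9, 14118 and 11997, and 4089 and 4301 CPM over the same 4 clusters. Ltf, an iron-binding protein, was at 6078 and 4019, 9901 (9662 to 10145) and 8069.5, 7396 and 7334, and 271 and 964 CPM. Lcn2 was kept at a higher fraction of its peak in mature cells than the other 3 genes in both libraries.

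The balance between Camp and Ltf moved with the cluster. Camp stood at 13.2 times the level of Ltf in preneutrophil-like cells, 6.36 in immature cells, 3.02 in the Retnlg cluster and 4.0 in mature cells, with both libraries summed. In the Prg2 cluster Camp was the specific gene with the highest level, at 1853 CPM in callus and 492 CPM in intact, where Ltf was at 28.6 CPM in callus and had 0 UMIs in intact. In the Gria3 cluster Camp was at 676 CPM in callus and 8.82 CPM in intact, the latter being 2 UMIs.

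The gelatinase genes were highest in the last clusters. Mmp8, which cleaves fibrillar collagen, was at 17.8 CPM in intact and 32.5 CPM in callus preneutrophil-like cells, 1045 and 658 CPM in immature cells, 4092 (3935 to 4254) and 3309.9 CPM in the Retnlg cluster, and 2246 and 1783 CPM in mature cells. Mmp9, which cleaves denatured collagen, was at 99.4 and 51.2 CPM, then 644 and 747, then 1902 (1796 to 2014) and 2754 (2641 to 2871), and last 2218 (2080.1 to 2364) and 2267 (2131 to 2409) CPM. Mmp8 therefore peaked in the Retnlg cluster in both libraries. Mmp9 was highest in mature cells in intact and in the Retnlg cluster in callus. Relative to Mmp9, Mmp8 stood at 1.62 (1.43 to 1.84) times its level in intact immature cells but at 0.881 (0.825 to 0.940) times in callus ones. The ratio was 2.15 in intact and 1.20 in callus in the Retnlg cluster, and 1.01 and 0.786 in mature cells, so it was highest in the Retnlg cluster in both libraries among these 3.

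**Figure D1:**
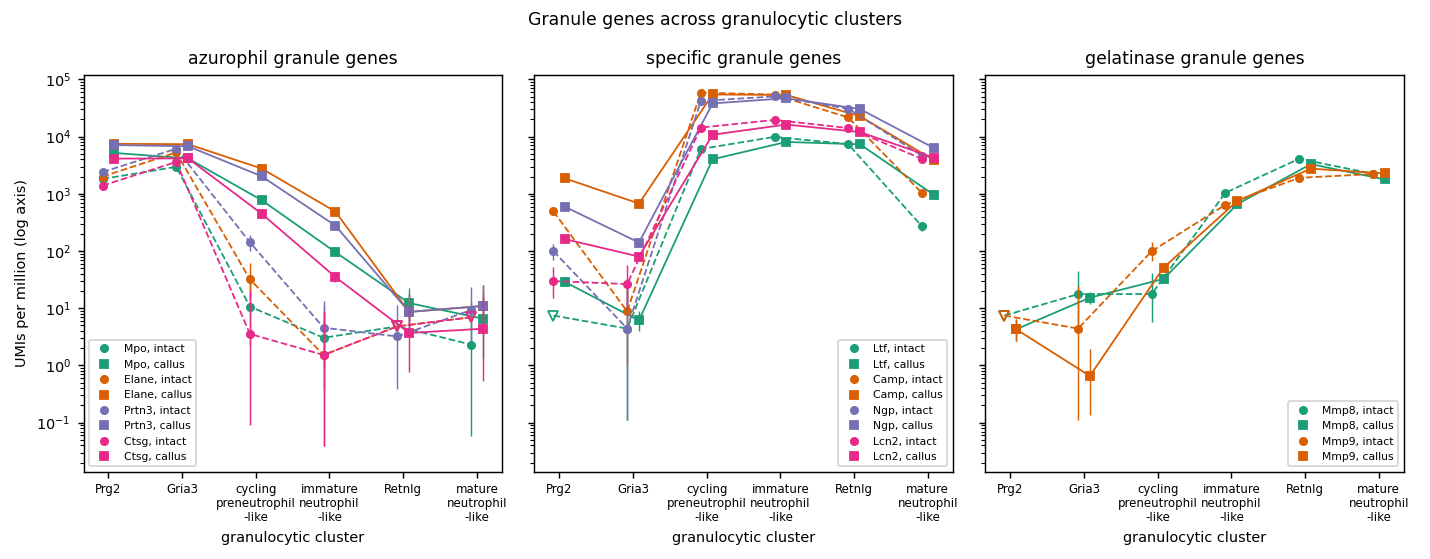
Level of each member in CPM on a log axis over the 6 granulocytic clusters, in a panel for each granule class, with circles and dashed lines for the intact library, squares and solid lines for callus, and bars for exact Poisson intervals. Open triangles are groups with 0 UMIs, drawn at 3 counts. The azurophil curves of the 2 libraries are apart in the Prg2 cluster, with Elane at 2001 CPM in intact and 7484 CPM in callus. In the Gria3 cluster they come closer. They are farther apart in the preneutrophil-like cells, where Elane was at 32.0 CPM in intact and 2763 CPM in callus. The specific curves lie close together there.

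When the clusters were joined into 3 stages (progenitor for the Prg2, Gria3 and preneutrophil-like clusters, immature for the immature and Retnlg clusters, and mature), 9 of 10 members in intact and 10 of 10 in callus were highest in the stage fixed for their class. The exception was Mmp8 in intact, at 2528 CPM in the immature and 2246 CPM in the mature stage. The tally depends on how clusters were joined, since Camp peaked in the preneutrophil-like cluster in both libraries and Mmp8 and Mmp9 in the Retnlg cluster in callus. With the mean over cells in place of the sum, callus Mmp8 was also highest in the immature stage, at 1787 against 1368 CPM. The stages were placed by other genes of the same cells, so these orders are a description.

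The share of cells with a transcript followed the levels, after each cell was thinned to 2000 UMIs to remove differences in depth. Elane was found in 66.3% of 178 callus and 17.9% of 28 intact cells of the Prg2 cluster, and in 61.6% and 55.6% of the Gria3 cluster. Without thinning these shares were 75.3%, 25%, 76.7% and 66.7%. In B-lineage cells, which should lack these transcripts, Elane was found in 1.70% of 823 cells at the same depth. Mmp8 was found in 51.4% of intact and 40% of callus immature cells, 100% and 98.5% of the Retnlg cluster, and 90.9% and 73.4% of mature cells, against 1.09% of B-lineage cells. Camp was found in 30% of intact and 41.3% of callus mature cells, and its B-lineage share was 9.23%. Mmp9 was found in 98.2% of intact and 96.3% of callus mature cells.

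Within the Prg2 and Gria3 clusters the azurophil genes were far from uniform. Reclustering of their 365 cells gave 8 subclusters. In the 46 cells led by Pf4, Ctla2a, Car1 and Hlf, genes of platelet, erythroid and stem cells, Mpo was at 126 CPM, Prtn3 at 277, Ctsg at 48.5 and Elane at 1.6 CPM. Elane was thus nearly absent in this subcluster, where Prtn3 and Mpo gave counts. Whether these cells come before the others was not tested. In the cells led by B4galt6, Nkg7 and Gfi1, the last a repressor needed for granulocyte formation, Elane was at 12888, Prtn3 at 10756, Mpo at 6951 and Ctsg at 6923 CPM. The cells led by S100a9 and S100a8 had azurophil levels of the same size, with Elane at 13729.9 CPM, and also Camp at 7601, Ngp at 2200.3, Lcn2 at 520.0 and Ltf at 89.8 CPM. Their leading genes also included the stromal genes Gsn, Dcn and Col3a1, whose part in these levels was not tested. In the cells led by Irf8 and Ly86, genes of monocyte and dendritic precursors, Prtn3 was at 4862, Mpo at 3315, Elane at 2899 and Ctsg at 2530.2 CPM. The cells led by Cpa3, a mast cell and basophil gene, and H2-Aa had Mpo at 2281, Prtn3 at 2081, Ctsg at 1874 and Elane at 681 CPM. Prtn3 stood at 3.06 times the level of Elane in the Cpa3-led and 1.68 times in the Irf8-led cells, against 0.93 in the whole Gria3 cluster. It was also above Elane in cells led by Fn1 (2.40 times) and by Ly6d (1.78 times). In the cells led by Prg2 it was at 1.02 times, and in the Gfi1-led and S100a9-led cells at 0.83 times.

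**Figure D2:**
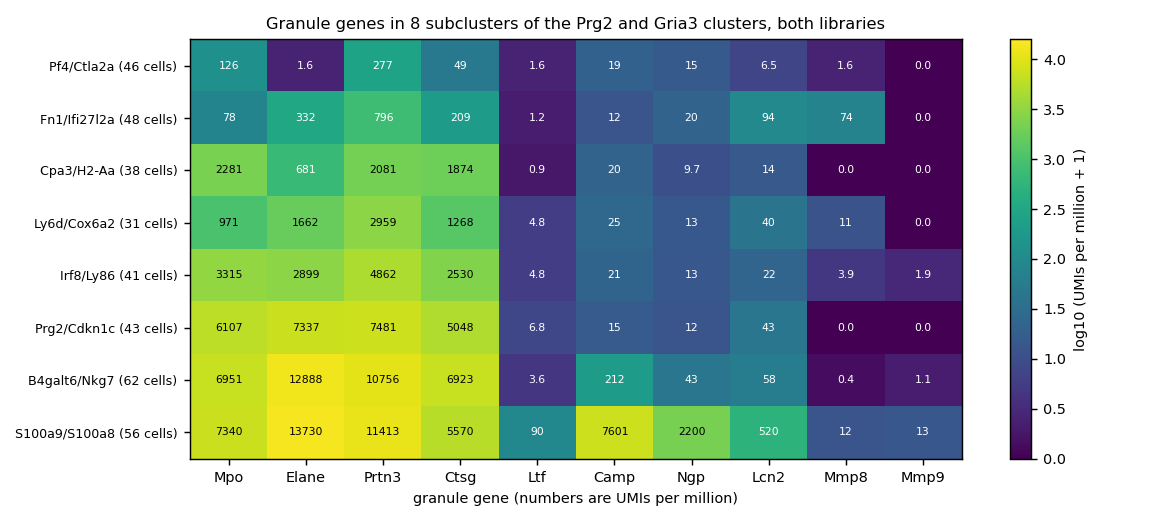
Heat map of the level of each member, as log10 of CPM, in the 8 subclusters of the Prg2 and Gria3 clusters with both libraries summed, each subcluster given by its leading genes and number of cells. Elane runs from 1.6 CPM in the Pf4-led cells to 13729.9 CPM in the S100a9-led cells, which are also the cells with the highest Camp.

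By share of UMIs, most single cells were dominated by either the azurophil or the specific class. Many cells still carried transcripts of both. Of the 213 callus preneutrophil-like cells, 72 had no azurophil UMI and 4 had no specific UMI. Specific genes reach higher levels than azurophil genes, so a low azurophil share does not mean that azurophil transcripts are lacking. Of the 1199 granulocytic cells with at least 10 UMIs from these classes, 261 had more than 90% of them from azurophil genes, 886 had more than 90% from specific genes and 52 lay between. The mixed cells were 2 of 268 in intact and 50 of 931 in callus. The limits of 10% and 90% cut a continuous range, with 24 cells between 5% and 15% and 30 cells between 85% and 95%. In callus preneutrophil-like cells, 30 cells with an azurophil share of at least 10% held 86.8% of the azurophil UMIs of that cluster and had a median of 30785 UMIs, against 19359 in the 177 cells under that share. In intact 0 of the 16 preneutrophil-like cells had such a share. The part of depth and of doublets in these cells was not tested. The 177 remaining callus cells still had a summed azurophil level of 1011 CPM, and the intact cells 188 CPM.

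**Figure D3:**
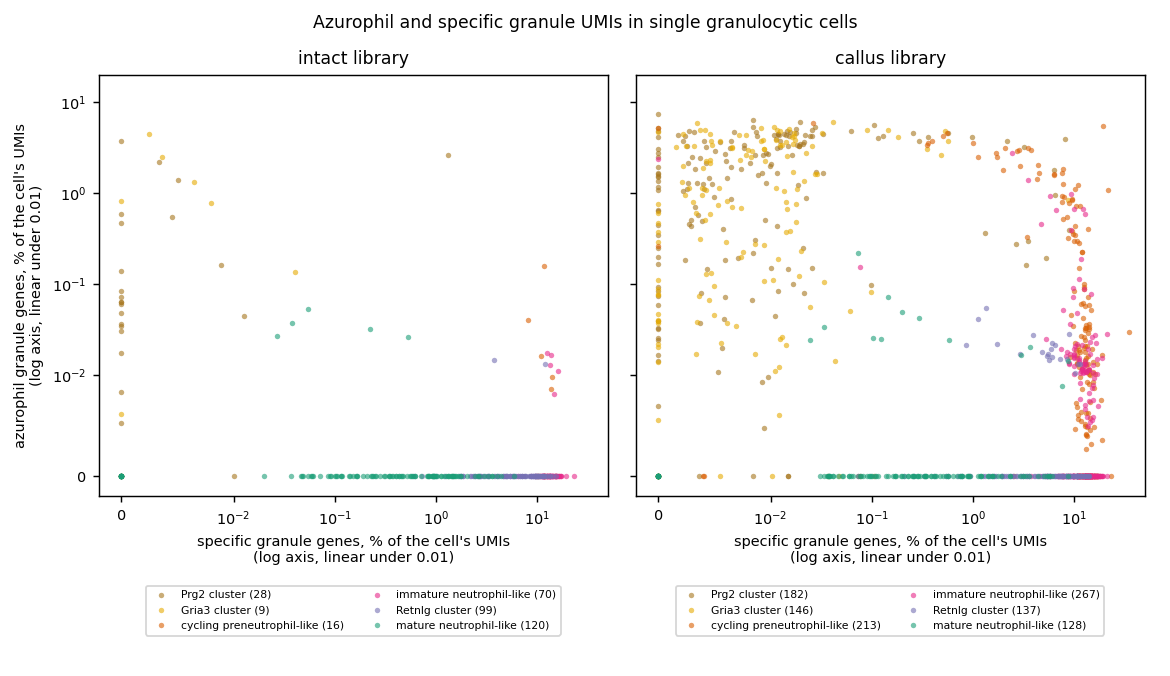
Each point is a granulocytic cell, with the percent of its UMIs from specific-granule genes on the x axis and from azurophil genes on the y axis, by library and coloured by cluster. Both axes are logarithmic except near 0, so cells with few UMIs of a class also lie off an axis. Of the 213 callus preneutrophil-like cells, 72 had no azurophil UMI. Mixed cells, with 10% to 90% of their azurophil and specific UMIs from azurophil genes, number 50 in callus and 2 in intact. They are not all of the points between the axes.

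Transcripts of the specific and gelatinase classes did share cells. At 2000 UMIs a cell, 99.3% of the 140 immature neutrophil-like cells with Mmp8 also had Ltf, while 42.5% of the 327 cells with Ltf had Mmp8. In the Retnlg cluster 99.0% of 199 cells with Ltf had Mmp8. In mature cells 18.3% of 180 cells with Mmp8 still had Ltf, and 98.3% of them had Mmp9. Of the callus cells with Elane, 53.2% of 62 in the preneutrophil-like and 90.5% of 21 in the immature cluster also had Ltf. Such shares were near those of all cells of the cluster at this depth, and those beside Elane were lower. Of 330 immature cells, 327 had Ltf and 140 had Mmp8. In the Retnlg cluster 229 of 231 cells had Mmp8, and of 219 mature cells 36 had Ltf and 213 had Mmp9. In callus, 177 of 208 preneutrophil-like and 257 of 260 immature cells had Ltf. The sharing thus does not show a link between genes within a cluster.

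The callus and intact libraries were then compared cluster by cluster, counting a member when it had at least 20 UMIs in the cluster and was at least 2-fold apart. Over the 6 clusters 21 of 51 values were at least 2-fold higher in callus and 0 were at least 2-fold lower. Of the 21, 12 had under 20 intact UMIs and so entered through the library in which they were high, which makes the counts a description with no weight of their own. In the Prg2 cluster 8 of 10 members were higher, against 9.31% of all genes with 20 UMIs, and 0 were lower, against 8.82% (18.1% in either direction). In the Gria3 cluster 3 of 9 members were higher (10.4% of all genes), in preneutrophil-like cells 4 of 10 (16.9%), in immature cells 4 of 10 (18.5%), in the Retnlg cluster 0 of 6 (8.39%) and in mature cells 2 of 6 (7.83%). In either direction the shares of all genes in these 5 clusters were 17.9%, 21.9%, 19.8%, 9.53% and 9.73%. The corresponding shares of all genes at least 2-fold lower were 7.56%, 5.04%, 1.33%, 1.14% and 1.91%. The median log2 ratio of all genes was 0.00, 0.06, 0.26, 0.37, 0.24 and 0.17 in the order of the clusters, so most genes leaned to callus in the later clusters.

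In the Prg2 cluster all 4 azurophil genes were higher in callus by a like factor, 2.85-fold (2.65 to 3.07) for Mpo, 3.74-fold (3.49 to 4.02) for Elane, 2.96-fold (2.78 to 3.16) for Prtn3 and 2.97-fold (2.73 to 3.23) for Ctsg. Camp was 3.77-fold (3.27 to 4.36), Ngp 5.94-fold (4.35 to 8.33) and Lcn2 5.40-fold (3.07 to 10.5) higher. Ltf had 140 UMIs in callus and 0 in intact, at least 3.83-fold higher against a floor of 3 counts over the cluster. The direction of Camp and Ltf depended on the clustering, with a log2 ratio of -0.10 for Camp at Leiden resolution 0.5 and -1.15 for Ltf at resolution 2. The make-up of this cluster differed too, since the Pf4-led cells were 48.6% of the 37 intact and 8.54% of the 328 callus cells of the Prg2 and Gria3 clusters. Within the Pf4-led cells Prtn3 was at 314 CPM in intact and 258 CPM in callus, and Mpo at 162 and 109 CPM. Within the Gfi1-led and S100a9-led cells Elane was at 10189 and 10885 CPM in intact, from 2 cells each, and at 12984 and 13817 CPM in callus. On these sums, given without intervals, Prtn3 and Mpo were lower in callus in the Pf4-led cells. Elane was higher in callus in the Gfi1-led and S100a9-led cells. Levels by library are not given here for the remaining subclusters, so these do not stand for all of them. In the Gfi1-led cells the azurophil genes did not all move alike. Prtn3 stood there at 1.07 times (0.979 to 1.17) the level of Elane in intact, from 2 cells. In callus it stood at 0.828 times (0.815 to 0.841). In the Pf4-led cells Ctsg stood at 0.152 times (0.0462 to 0.391) the level of Mpo in intact. It stood at 0.556 times (0.326 to 0.926) in callus, and these 2 intervals overlap. The part of the cluster's make-up in the differences was not tested.

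In the Gria3 cluster the azurophil genes were 1.11- to 1.40-fold apart, and the 3 members past 2-fold were specific genes that rest on few intact UMIs. Camp was 76.7-fold higher (21.2 to 634) on 2 intact UMIs, Ngp 31.9-fold (5.71 to 1263) on 1 and Lcn2 3.02-fold (1.38 to 8.29) on 6. The intact cluster held 9 cells, and under 6 alternatives 49.7% to 57.2% of the cells of the Gria3 cluster, its largest share in any cluster, fell in a cluster that was not called granulocytic.

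In preneutrophil-like and immature cells the members past 2-fold were the 4 azurophil genes in both clusters. Of the 213 callus preneutrophil-like cells, 30 held 86.8% of the azurophil UMIs. In the 177 with an azurophil share under 10% the summed level was 1011 CPM, against 188 CPM in the 16 intact cells. Among preneutrophil-like cells Elane was 86.5-fold higher in callus (45.5 to 189, on 9 intact UMIs), Prtn3 14.3-fold (10.5 to 20, on 40), Mpo 72.7-fold (24.8 to 353, on 3) and Ctsg 126-fold (22.6 to 4985, on 1). The specific genes in the same cells were lower in callus by less than 2-fold, with log2 ratios of -0.60 for Ltf, -0.41 for Lcn2, -0.14 for Ngp and -0.11 for Camp. Mmp9 was just inside the limit at -0.96. Among immature cells Elane was 321-fold higher (57.5 to 12696), on 1 intact UMI against 1267 in callus, and Prtn3 60.8-fold (20.7 to 295), on 3. Callus cells with at least 10% azurophil share were few here as well, since 4 immature cells held 57.0% of the azurophil UMIs, and without them the summed level was 397 CPM against 10.7 CPM in intact. In B-lineage cells, which should lack these transcripts, the summed azurophil level was also higher in callus, at 34.7 CPM against 3.11 CPM in intact, and its part in these differences was not tested.

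In mature cells Camp was 3.76-fold (3.39 to 4.18) and Ltf 3.55-fold (2.89 to 4.39) higher in callus, while Ngp and Lcn2 were 1.37- and 1.05-fold apart. These sums do not describe the typical cell, since the median share of specific-class UMIs in a mature cell was 0.401% in intact and 0.238% in callus. Under a looser cell filter of 200 genes, the mature stage of the new clusters had Camp at 12804 CPM in intact and 15583 CPM in callus. That stage also had Ltf at 4379 CPM in intact. It is not the same group of cells as the mature cluster here, so the levels cannot be set side by side. In the Retnlg cluster no member was 2-fold apart, and Mmp9 was 1.45-fold (1.35 to 1.55) higher in callus while Mmp8 was at 0.809 times (0.766 to 0.854) its intact level. Markers of other cells were also present in the granulocytic clusters. Erythroid markers were found for 5 of 6 genes in intact (Slc4a1 at 0) and 6 of 6 in callus, with a summed level of 340 to 1708 CPM over the intact clusters and 128 to 356 CPM over callus. Fibroblast and stromal markers were found for 6 of 9 genes in intact (Pdgfra, Lum and Lepr at 0) and 9 of 9 in callus, at 19.9 to 253 and 23.4 to 429 CPM. Monocyte markers were found for 7 of 7 genes in both, at 496 to 3519 CPM in intact and 563 to 2928 CPM in callus, with the highest level in the Gria3 cluster in both. Their part in the differences between libraries was not tested.

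**Figure D4:**
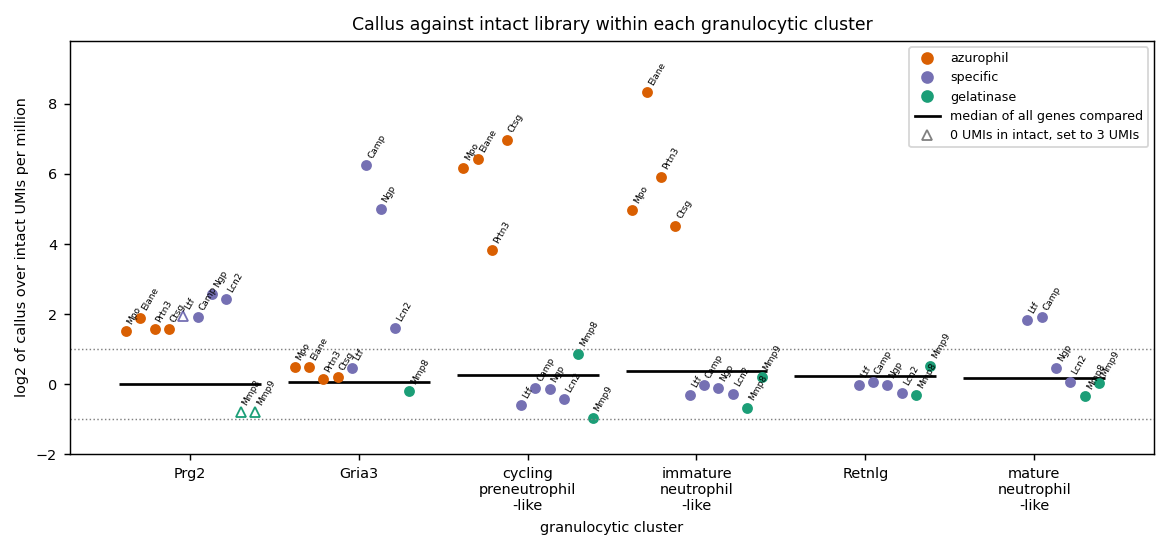
Log2 of the callus level over the intact level of each member in each granulocytic cluster, with the median of all genes as a black line and 2-fold limits as dotted lines. Open triangles are genes with 0 intact UMIs, set against 3 counts. The azurophil genes lie between 1.11- and 1.40-fold in the Gria3 cluster. In preneutrophil-like cells they lie between 14.3- and 126-fold, on 1 to 40 intact UMIs a gene.

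Granulocytic cells held 98.5% of all member UMIs in intact and 96.87% in callus. The lowest share was that of Mmp9 in callus, at 74.4%, with 21.8% in the macrophage cluster. Ctsg in intact stood at 91.6% in granulocytic cells, with 5.24% in eosinophil, basophil and mast-like cells. In the 2970 other named cells the median member count was 0 UMIs in intact and 1 in callus. Of these cells, 22 had at least 20 UMIs of the specific class. In intact this was 1 fibroblast or stromal cell, which held 60.4% of the member UMIs of such cells, and in callus 21 cells held 74.8%. They were named by their other genes, and the part of doublets or of adhering neutrophils was not tested. Set against B-lineage cells of the same library, 11 of 11 pairs of a member and a cell type with at least 20 UMIs were at least 2-fold higher in intact (33.9% of all genes' pairs) and 22 of 54 in callus (24.6%). Pairs entered through the UMIs of the other type, so these counts are a description and follow in part from that limit. Without the 22 cells these counts were 5 of 8 (33.9%) and 17 of 37 (25.0% of all genes' pairs).

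Ctsg was the azurophil gene with the highest level in the eosinophil, basophil and mast-like cells. It was at 2507 CPM (1985 to 3124) in the 5 intact and 2553 CPM (2376 to 2740) in the 35 callus cells, and found in 69.2% of 39 cells at 2000 UMIs against 1.09% of B-lineage cells. Mpo was at 349 and 675 CPM, Prtn3 at 0 UMIs in intact and 153 CPM in callus, and Elane at 0 UMIs in intact and 46.5 CPM in callus. Ctsg was thus at 3.96 times (3.40 to 4.62) the level of Mpo, against 0.795 in the Prg2 cluster, both in CPM with libraries summed. Mmp8 and Mmp9 gave 0 UMIs in these cells.

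Prtn3 was the azurophil gene with the highest level in monocyte-like cells. It was at 231 CPM (188 to 280) in the 54 intact and 344 CPM (320.0 to 370.0) in the 266 callus cells, with Elane at 38.1 and 140 CPM. Prtn3 was at 2.66 times (2.33 to 3.03) the level of Elane there, with libraries summed. It was found in 11.3% of intact and 19.8% of callus monocyte-like cells at 2000 UMIs, 27.8% and 35.7% without thinning, against 2.67% of B-lineage cells at 2000 UMIs. In callus 19 of the 266 cells, those with at least 20 azurophil UMIs, held 77.3% of the azurophil UMIs. Prtn3 levels differed by monocyte subcluster. In the 27 cells led by the replication genes Mcm3 and Dut it was at 1213 CPM and found in 81.5% at 2000 UMIs, and in the 22 cells led by the mitotic genes Cenpf and Ube2c it was at 722 CPM and found in 68.2%. In the cells led by Thbs1 and Ccr1 it was at 83.2 CPM, and in those led by H2-Aa and Ace at 26.4 CPM. Mmp8 had another order among monocytes, at 128 CPM in the Thbs1-led and 30.3 CPM in the H2-Aa-led cells.

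Mmp9 was the member with the largest part outside granulocytes in callus, while in intact that was Ctsg. The macrophage cluster divided into cells led by Acp5 and Ctsk, the acid phosphatase and the collagen-cleaving cathepsin of osteoclasts, and cells led by Retnla. In the 64 Acp5-led cells, all from callus, Mmp9 was at 1945 CPM (1851 to 2043), or 1595 UMIs, which is of the size of its level in mature neutrophil-like cells. These UMIs came from 25% of the cells, and from 20.8% of 53 cells at 2000 UMIs. In the Retnla-led cells Mmp9 was at 205 CPM (127 to 314) in intact, from 21 UMIs in 24 cells, and 16.4 CPM (4.46 to 41.9) in callus, from 4 UMIs in 57 cells. Osteoclasts are known to secrete this protease during bone resorption.

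Some other values outside granulocytes rested on very few cells. The summed azurophil level of callus erythroid cells was 1108 CPM, but 2 cells held 97.4% of it, and the level was 31.0 CPM without them. In callus B-lineage cells 10 of 606 cells held 95.7% of the member UMIs.

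**Figure D5:**
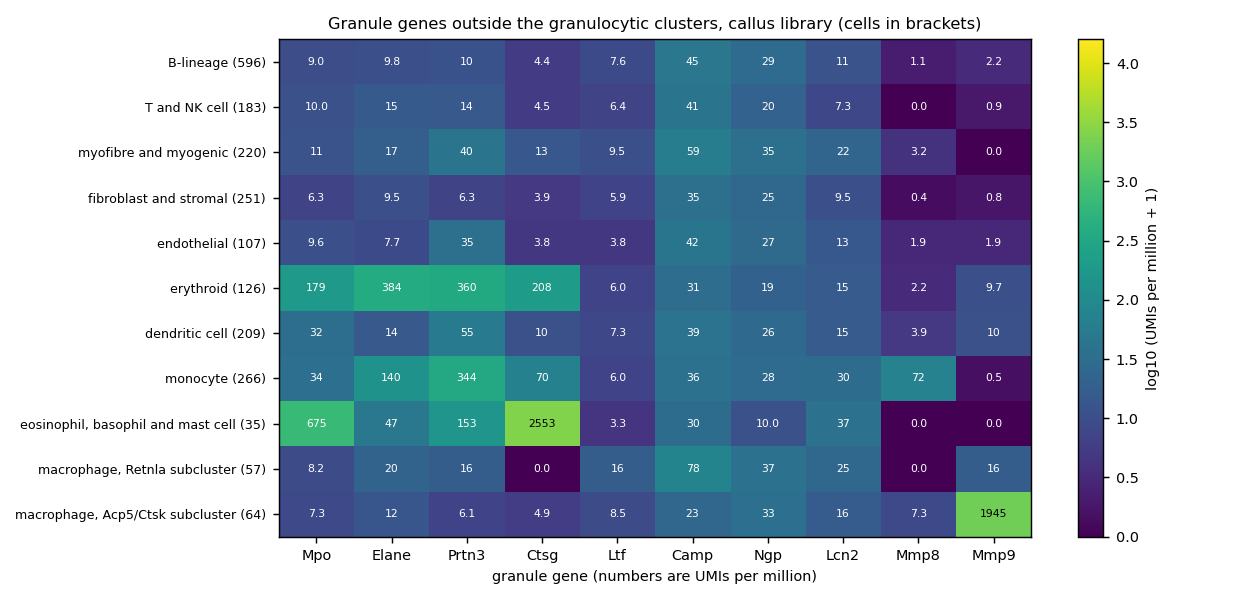
Heat map of the level of each member, as log10 of CPM, in the non-granulocytic types of the callus library after removal of cells with at least 20 specific-class UMIs, with the macrophage cluster divided by leading gene. Ctsg and Mpo in eosinophil, basophil and mast-like cells, Prtn3 in monocyte-like cells and Mmp9 at 1945 CPM in Acp5-led cells are among the high values. Before the removal, 2 erythroid cells held 97.4% of the azurophil UMIs of their type. The removal took out 1 erythroid cell, so at least 1 of these 2 cells is still in the erythroid values drawn.

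The genes whose level followed each class most closely were looked for over 28 groups of a cell type in a library and 12055 genes, by Pearson's r of log2(CPM + 10). These groups share libraries and lineages, so the correlations are descriptions. The mean of the azurophil genes was followed by Ms4a3 (r = 0.94), Prss57 (0.91), Plppr3 (0.88), Glt1d1 (0.87) and Hsd17b1 (0.86). Prss57 is itself a neutrophil serine protease, and Plppr3 is the coding gene next to Prtn3. The specific genes were followed by Wfdc21 and S100a9 (both 0.95), S100a8 and Itgb2l (both 0.94) and Mapk13 (0.93), and the gelatinase genes by Slfn4 (0.97), Fpr1, Fpr2, Ceacam10 and Scrg1 (all 0.95). Fpr1 and Fpr2 are formyl peptide receptors of neutrophils, and S100a8 and S100a9 form calprotectin. Among the members, pairs within the azurophil class had an r of 0.87 to 0.97, pairs within the specific class 0.91 to 0.98, and Mmp8 with Mmp9 0.81. Pairs of an azurophil and a gelatinase gene had an r of -0.39 to -0.17, and pairs of a specific and a gelatinase gene 0.58 to 0.84. Mmp8 had an r of 0.84 with Lcn2, 0.81 with Ltf, 0.78 with Ngp and 0.68 with Camp, against 0.81 with Mmp9.

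Of 22 other granule and secretory genes, 21 had at least 100 UMIs, and their peaks were spread over all 6 clusters, with 2 in the Prg2, 1 in the Gria3, 3 in the preneutrophil-like, 3 in the immature, 7 in the Retnlg and 5 in the mature cluster. Lyz2 (lysozyme) was highest in immature cells at 12555 CPM and already at 3134 CPM in the Gria3 cluster. Chil3, a chitinase-like protein, was highest in preneutrophil-like cells at 6448 CPM. Srgn, the proteoglycan that packs granule proteases, was at 2905 CPM in the Prg2 and 4700.3 CPM in the mature cluster, with 237 CPM in immature cells between them. It thus had a peak at each end.

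The 10 transcription factors peaked in the Prg2 (3), Gria3 (2), preneutrophil-like (2), Retnlg (1) and mature (2) clusters. Cebpe, needed for specific granules, was highest in preneutrophil-like cells at 586 CPM, the cluster with the highest Camp. Cebpe is also on the marker list that named that cluster. Cebpa, Gfi1 and Myb, the 3 with a peak in the Prg2 cluster, are on the progenitor list on which that cluster scored highest. These peaks thus follow in part from the naming and are no separate support for the stages. Cebpb was at 185 CPM in the Prg2 and 3649.7 CPM in the mature cluster, and Spi1, which encodes PU.1, was at 227 and 605 CPM there. Of 12 protease inhibitors and receptors 7 had at least 100 UMIs, and 4 of these were highest in mature cells. Serpinb1a, an inhibitor of elastase, proteinase 3 and cathepsin G, was highest in preneutrophil-like cells at 1094 CPM, the cluster in which these proteases were below their Prg2 and Gria3 levels. Slpi, a secreted inhibitor of elastase, was highest in mature cells at 2870.4 CPM, and Cstb at 111 CPM.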

How the data were processed

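The authors sequenced 10x Genomics 3′ v3 libraries, and the submitters' processing notes name Cell Ranger 6.0.0 and mm10. The deposited values are raw UMI counts of 32285 genes in filtered barcodes, 12112002 in the intact and 36714322 in the callus library. The members and gene lists were chosen with earlier results of these data known. All 10 members are named, with the 3 highest genes of each other list and the 5 genes most like each class. A few cluster-leading genes were named after their values were seen.

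Barcodes with 500 or more genes and no more than 10% mitochondrial counts were scaled to 10000 UMIs, log-transformed and clustered in scanpy 1.11.5 (2000 variable genes without 32 granule genes, 30 components, 15 neighbours, Leiden resolution 1). Clusters were named from the mean log2 ratio of marker lists, with 10 CPM added, at limits set after the clusters were seen: 0.5 for granulocytic, 1 for a named stage and 1.5 for another type, with at least 3 detected markers and no other list leading the top 10 genes. Levels are CPM of summed counts with exact Poisson intervals (scipy 1.17.1). Shares of cells were taken after thinning to 2000 UMIs, which left out 10 intact and 40 callus granulocytic cells. No test was made, with 1 library per condition. Scrublet called 7 of 4502 cells (0.155%), so doublets were not taken as removed. The level of tdTomato was not analysed here. Scripts were tested on simulated data. Alternatives varied the cell filter, resolution, clustering genes, minimum count and doublet handling.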

Additional observations from a re-analysis of the deposited data

Results flagged for a closer look

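Member UMIs were also found in barcodes that the cell filter removed, which no comparison above uses. In callus the 692 removed barcodes held 9692 member UMIs, or 3994 CPM, and in intact the 665 removed barcodes held 1612, or 351 CPM. In callus 16 barcodes with at least 100 member UMIs held 88.4% of them. The 70 callus barcodes removed for more than 10% mitochondrial counts held 7250 member UMIs, or 30446 CPM, of which 6962 were azurophil, and 12 barcodes held 95.3%. In intact 7 such barcodes held 739 member UMIs, 737 of them azurophil, and 1 barcode held 97.4%.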

How the results depend on the processing

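With 1 library per condition, the spread between animals is unknown and pooled mice cannot be separated. No paired analysis was possible because each condition is 1 library. Of the comparison values recomputed, 22 moved and 43 did not. The members at their class stage numbered 9 to 10 under every alternative that gave a value. The values at least 2-fold apart between the libraries, in either direction, numbered 14 to 23 of those counted. Clustering each library alone gave no value for that count. The intact share of member UMIs in granulocytic cells was 98.7% under a looser cell filter (200 genes). Under a stricter one (a higher gene minimum and no more than 5% mitochondrial counts) it was 97.0%. It was 98.7% at resolution 0.5, 97.8% at resolution 2 and 97.8% with each library clustered alone. It was 99.2% without doublets by Scrublet's score and 99.5% without the top 1% of cells by member UMIs. This last setting picks cells by the same counts that make up the share. The callus share was 95.9%, 95.2%, 96.0%, 94.5%, 95.4%, 98.4% and 99.0% under the same settings and 95.1% with no gene left out of clustering. Intact pairs above B-lineage cells numbered 17 under the stricter filter, 3 without the cells of highest Scrublet score and 4 without the top 1%. They numbered 6 with at least 50 UMIs and 5 without cells of 20 or more specific-class UMIs. The latter setting was chosen after seeing the data. Callus pairs numbered 36 with no gene left out and 14 without the top 1%. The callus over intact log2 ratio of Camp in the Prg2 cluster turned to -0.10 at resolution 0.5 and -0.070 at resolution 2, and that of Ltf to -1.15 at resolution 2. The cause was not tested. Of the members' ratios between libraries, 256 did not move, 133 moved and 3 turned. The Gria3 cluster was the least stable, since its best match was non-granulocytic in 6 alternatives, with 49.7% to 57.2% of its cells.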
